A study of Homo sapiens with 16 samples.

Results

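The genes described here are YAP1, the transcriptional coactivator YAP, its DNA-binding partner TEAD1, and 5 genes that YAP and TEAD factors are known to switch on, namely CTGF, CYR61, ANKRD1, AMOTL2 and AXL. Every probe of the array table that carried one of these 7 symbols was taken, which gave 8 probes of 24526 and 7 gene symbols of 18631. AXL had 2 probes and each other gene had 1. Probes with a detection p-value under 0.05 on at least 3 arrays were tested, and 6 of the 8 probes, each of a different gene, were among the 16110 that passed. Both AXL probes failed this filter. The 3 genes CTGF, CYR61 and ANKRD1 were at their highest normalized log2 signal at 0 h and lower on all 15 later arrays.

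YAP is the effector of the Hippo pathway, in which the MST kinases activate the LATS kinases and these phosphorylate YAP and its relative TAZ. Phosphorylated YAP is held in the cytoplasm, whereas unphosphorylated YAP enters the nucleus and binds TEAD factors, which supply the contact with DNA. Cell density, attachment, serum lipids and growth factor signaling are known inputs, and in breast epithelium YAP is known for its link to growth and to the response to mechanical stress. CTGF and CYR61 are the target genes most often used as a readout of YAP.

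SUM225 is a human breast cancer cell line with amplification and over expression of HER2. CP724,714 is a small molecule inhibitor of the HER2 kinase. Cells received CP724,714 at 1 µM, and 1 of several parallel cultures was taken at each 3 h step up to 45 h, beginning with 0 h as the only one without time in the inhibitor. The RNA of every culture went onto its own Illumina bead array, so the 16 time points have 16 arrays and no replicate. Untreated cells were not followed over time in the samples analysed here, so the inhibitor, time in culture and the handling of the cells at the start of treatment cannot be told apart. The labels give Ham's F-12 medium with fetal bovine serum, insulin and hydrocortisone, whereas the methods of the study describe a serum-free medium for this line. The samples analysed here are all of this line. Standard errors below come from the deviations of arrays around a fitted course or window mean, and p-values measure that spread alone, which may be technical.

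The median signal ranged from 242 to 384 over the arrays and 57.5% to 61.5% of probes were detected. Both values of the 0 h array, 278 and 60.3%, lay within these ranges. All 6 markers of luminal epithelium, ERBB2 (HER2) among them, were detected on 16 of 16 arrays. Of 8 markers of fibroblasts and stroma, 5 were detected on no array and PDGFRA on all 16, and COL1A1 and COL1A2 were each detected on 5. None of the 3 stromal genes tested passed the test of a linear trend or of the first hours described below. PDGFRA did pass the test of dependence on time described below (limma, adjusted p = 0.00434), as 51.3% of all probes did. The time windows used below have the borders of 4 sets of 4 neighbouring arrays (0-9, 12-21, 24-33, 36-45 h). Over all probes tested, the median absolute change between neighbours was 0.23 log2 units from 9 to 12 h, 0.19 from 21 to 24 h and 0.15 from 33 to 36 h, and within the sets it ranged from 0.12 to 0.23. The labels name no batch for these sets, and a difference between windows and one between sets cannot be told apart. The comparison of 0 h with 3 to 9 h lies within 1 set.

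The promoters of CTGF, ANKRD1 and YAP1 are printed because CTGF and ANKRD1 were lower after 0 h and YAP1, which encodes the coactivator itself, was not called lower. The sequences are from RefSeq (GRCh38.p14) and hold the 250 bases before the annotated start of the gene, on the strand of the gene. Capitals mark GGAATG, the core of the element that TEAD factors are known to bind. CTGF, listed in RefSeq as CCN2, lies on the minus strand and the window is chr6:131951373-131951622.
CTGF: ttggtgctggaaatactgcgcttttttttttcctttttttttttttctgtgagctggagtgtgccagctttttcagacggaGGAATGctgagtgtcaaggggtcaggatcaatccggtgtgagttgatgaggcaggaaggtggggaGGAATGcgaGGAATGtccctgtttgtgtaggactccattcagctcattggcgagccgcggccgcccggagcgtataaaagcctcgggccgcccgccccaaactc
The window of ANKRD1 is chr10:90921088-90921337, on the minus strand.
ANKRD1: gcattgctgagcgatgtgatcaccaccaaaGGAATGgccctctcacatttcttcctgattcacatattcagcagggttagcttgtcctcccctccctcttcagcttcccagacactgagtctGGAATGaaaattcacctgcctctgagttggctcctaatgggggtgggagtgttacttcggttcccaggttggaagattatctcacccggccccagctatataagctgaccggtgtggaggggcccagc
The window of YAP1 is chr11:102110197-102110446, on the plus strand.
YAP1: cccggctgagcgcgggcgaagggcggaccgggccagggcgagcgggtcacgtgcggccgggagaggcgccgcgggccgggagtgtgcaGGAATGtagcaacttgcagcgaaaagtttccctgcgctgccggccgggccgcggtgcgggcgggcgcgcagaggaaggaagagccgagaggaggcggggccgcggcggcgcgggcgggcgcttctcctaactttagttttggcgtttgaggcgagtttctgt

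The search used GGAATG on the strand of the gene and its reverse complement CATTCC, and no other motif. CTGF held GGAATG 3 times, beginning 95, 104 and 169 bases before the start. ANKRD1 held it 2 times, beginning 128 and 220 bases before the start, and YAP1 held it once, at 162 bases. AMOTL2 and AXL each have 2 annotated starts, of which the first had no match and the second had 1 CATTCC. Of 35116 promoters of the same length, 11.9% held at least 1 match on either strand, 0.94% held at least 2 and 0.0826% held at least 3. A match is a run of letters in this window and does not show that a TEAD factor binds there. CYR61, listed in RefSeq as CCN1, and TEAD1 have no entry in the promoter table.

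CTGF encodes a secreted protein of the extracellular matrix that modulates growth factor and integrin signaling. Its signal intensity was 1197 at 0 h and 321 at 3 h, the lowest of the course. After background correction and quantile normalization the log2 signal was 10.11 at 0 h and 7.79, 8.03 and 8.44 at 3, 6 and 9 h. It was 8.38, 8.30, 8.45 and 8.53 from 12 to 21 h, 9.06, 8.80, 8.81 and 8.52 from 24 to 33 h, and 8.81, 9.19, 8.82 and 9.02 from 36 to 45 h. The 0 h array thus stood above every later array, the 3 h array below every other, and the later values lay between them. CTGF was 5.00-fold lower at 3 h than at 0 h and 1.89-fold lower at 39 h, where it came closest to its level at 0 h.

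CYR61 encodes another secreted matrix protein of the same CCN family and is known as an immediate early gene of serum and growth factors. Its signal intensity was 3618 at 0 h and 841 at its lowest. The log2 signal was 11.82 at 0 h and 10.49, 10.23 and 9.57 at 3, 6 and 9 h. It was 10.36, 9.92, 9.80 and 9.49 from 12 to 21 h, 10.19, 9.93, 10.05 and 9.88 from 24 to 33 h, and 10.03, 9.95, 9.74 and 9.80 from 36 to 45 h. The 15 later values lay between 9.49 and 10.49, and the closest to 0 h, at 3 h, was 2.52-fold lower. The median later array was 3.70-fold lower than 0 h.

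ANKRD1 encodes an ankyrin repeat protein of the nucleus and sarcomere that is known as a YAP target in epithelial cells and as a stress-induced gene in muscle. The log2 signal was 9.21 at 0 h and 7.95, 7.87 and 7.98 at 3, 6 and 9 h. It was 7.65, 7.16, 6.98 and 7.14 from 12 to 21 h, then 8.27, 8.44, 8.42 and 7.79 from 24 to 33 h, and 8.26, 8.92, 8.31 and 8.32 from 36 to 45 h. The 4 arrays from 12 to 21 h were below all other arrays. At 39 h ANKRD1 was 1.22-fold lower than at 0 h, and the other 14 later arrays were all more than 1.7-fold lower. Before normalization its signal intensity was 707 at 0 h, 316 at its lowest at 6 h and 745 at its highest at 27 h, which was the array with the highest median signal.

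**Figure D1:**
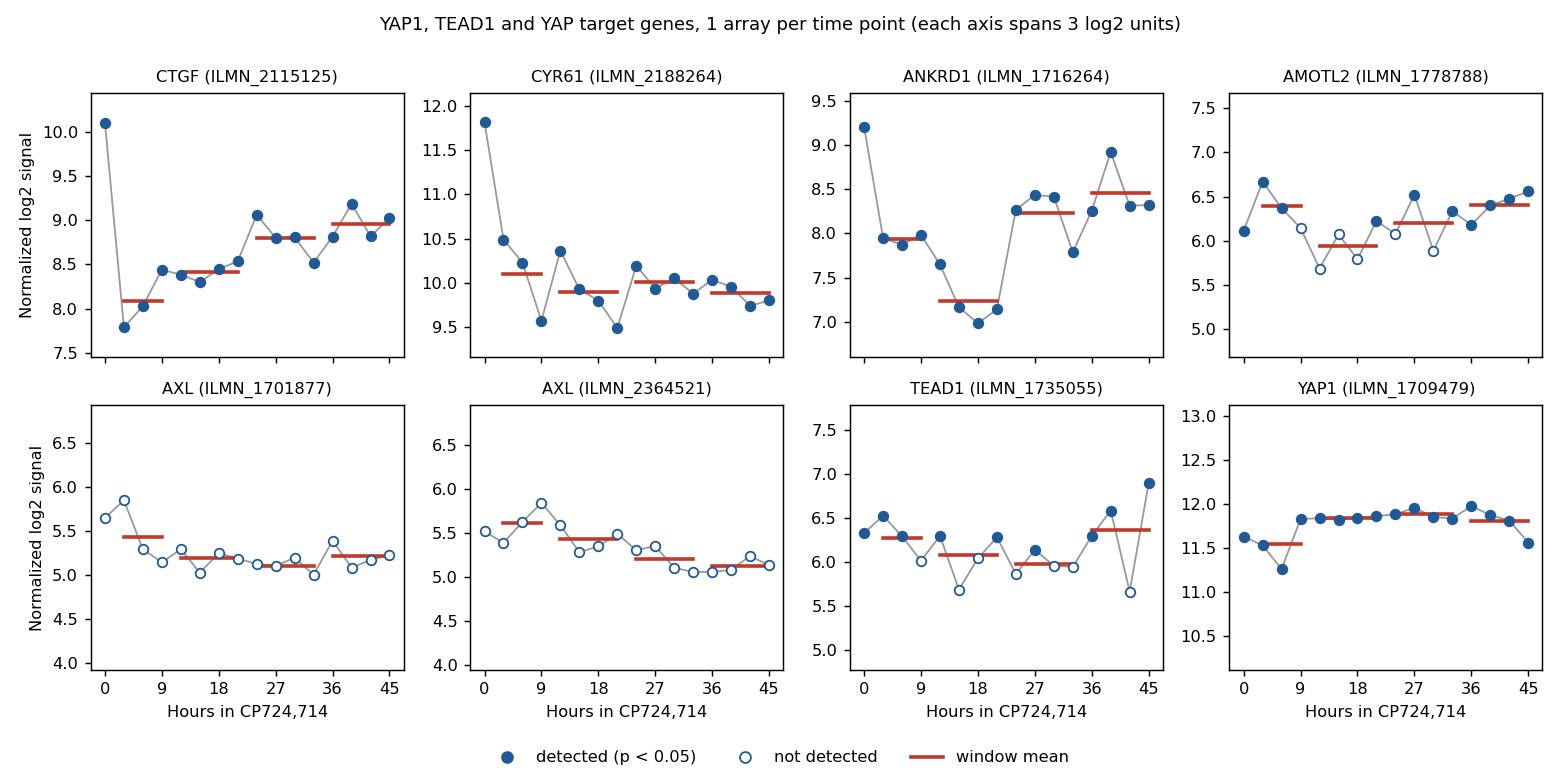
Normalized log2 signal (vertical axes, each spanning 3 log2 units) of the 8 probes on the 16 arrays from 0 to 45 h in 1 µM CP724,714 (horizontal axes), with 1 array per time point. Filled circles are arrays with a detection p-value under 0.05, open circles those without, and red bars the means of the windows 3 to 9, 12 to 21, 24 to 33 and 36 to 45 h. CTGF, CYR61 and ANKRD1 are highest at 0 h, YAP1 stays within 1.64-fold over the course, and all circles of both AXL probes are open.

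The first hours were tested in limma by setting the mean of the 3, 6 and 9 h arrays against the 0 h array, a contrast chosen after the values were seen, in which the lone 0 h array is assumed to vary like the others. CTGF fell by 2.02 ± 0.23 log2 units (SE), or 4.06-fold, with an adjusted p of 3.63e-05. CYR61 fell by 1.72 ± 0.29, or 3.31-fold (limma, adjusted p = 0.00184), and ANKRD1 fell by 1.27 ± 0.29, or 2.42-fold (limma, adjusted p = 0.0212). These were 3 of the 6 probes tested. Of all 16110 probes, 2.33% passed in either direction and 1.19% were lower at 3 to 9 h. Only 14 probes had a larger fall than CTGF among those tested, and 29 had a larger fall than CYR61. Without the 6 h array the adjusted p of ANKRD1 was 0.065, and CTGF and CYR61 passed with any 1 of the later arrays left out. RNA came from whole cultures, so fewer cells that express a gene and less of its RNA per cell cannot be told apart.

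The other members tested did not pass this contrast. YAP1 differed by -0.09 ± 0.17 (limma, adjusted p = 0.845), TEAD1 by -0.05 ± 0.38 and AMOTL2 by 0.28 ± 0.32 (limma, adjusted p = 0.712). The SE of TEAD1 and AMOTL2, whose signals were near background, exceeded the median SE over all probes of 0.22. So did those of CTGF (0.23), CYR61 (0.29) and ANKRD1 (0.29).

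**Figure D2:**
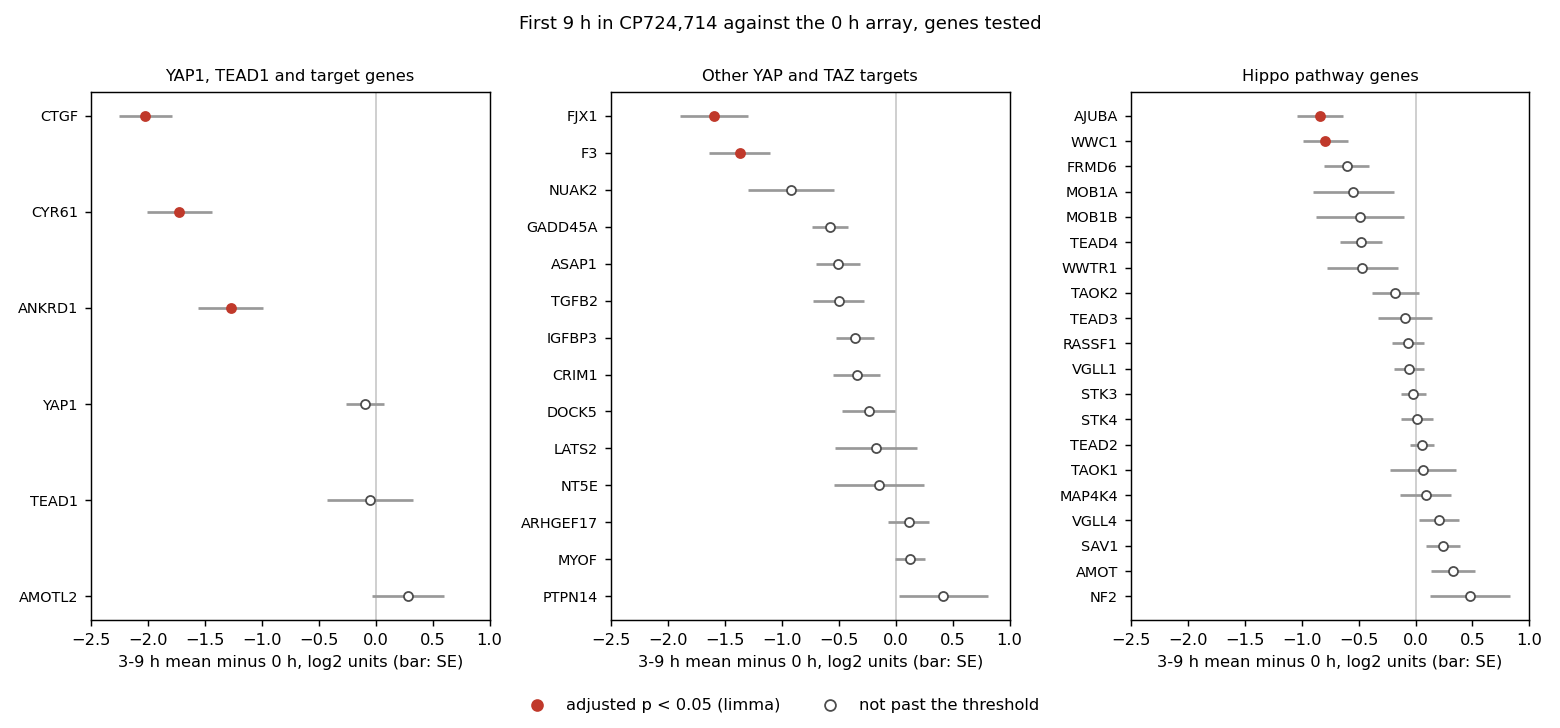
Mean log2 signal of the 3, 6 and 9 h arrays minus the 0 h array (horizontal axes, log2 units; bars are SE from limma) for YAP1, TEAD1 and the target genes tested, for other YAP and TAZ target genes and for Hippo pathway genes. Filled red circles passed an adjusted p of 0.05. CTGF, CYR61 and ANKRD1 lie furthest to the left in their panel, and FJX1, F3, AJUBA and WWC1 are the genes of the other panels that passed.

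Against the 0 h array alone, without a test, CTGF and CYR61 were lower by at least 1.7-fold on all 15 later arrays, which held for 0.261% of all probes tested. At 3 h all of CTGF, CYR61 and ANKRD1 were lower by at least 1.7-fold, as were 2.43% of all probes. Counting a change of 1.7-fold in either direction at any time, 3 of the 6 members tested were past it, beside 50.3% of all probes. By that looser measure the members were therefore no more often changed than other probes.

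From 3 h on the courses of the 3 genes are given side by side, and the difference between them was not tested. The means of the 4 later windows of CTGF were 8.09 ± 0.33 (SD, n = 3), 8.42 ± 0.10, 8.80 ± 0.22 and 8.96 ± 0.18 (SD, n = 4 each). These windows differed in the limma F-test (adjusted p = 0.00046), although no pair of neighbouring windows did, the steps being 0.33, 0.38 and 0.16 with adjusted p between 0.109 and 0.651. The first step of CTGF was 0.18 without the 3 h array and 0.51 without the 9 h array, where it passed (limma, adjusted p = 0.0167), as it did with array weights (0.47, adjusted p = 0.0229). In ANKRD1 the windows also differed (limma, adjusted p = 7.92e-05), with means of 7.93 ± 0.06, 7.23 ± 0.29, 8.23 ± 0.30 and 8.45 ± 0.31. Here ANKRD1 fell by 0.70 ± 0.19 from the 3 to 9 h window to the 12 to 21 h window, or 1.63-fold (limma, adjusted p = 0.00963), as 12.9% of all probes did. It then rose by 0.99 ± 0.18 to the 24 to 33 h window, or 1.99-fold (limma, adjusted p = 0.00104), as 5.21% of all probes did. The last step of 0.23 did not pass (limma, adjusted p = 0.603). For CYR61 the window means lay between 9.88 and 10.10 and did not pass (limma, adjusted p = 0.702). In all, 2 of the 6 members differed between windows, beside 44.3% of all probes.

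Over all 16 arrays a cubic course was fitted, which gives a linear change over 45 h and a test of curvature. Of the 6 members tested, CYR61, ANKRD1 and YAP1 depended on time, beside 51.3% of all probes. CYR61 alone had a linear trend and fell by 0.90 ± 0.21 log2 units (limma, adjusted p = 0.00159), beside 47.7% of all probes with a linear trend, of which 21.7% of all probes fell and 26.0% rose. The same 3 genes departed from a straight line, beside 19.3% of all probes. CTGF did not pass any of these (limma, adjusted p = 0.0722 for time, 0.316 for the linear change and 0.103 for curvature). It passed the test of time without the 0 h array (limma, adjusted p = 0.00024), the 3 h array (0.00542) or the 33 h array (0.0474), and with array weights (0.0302).

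The calls of a linear change of the 3 genes depended on the 0 h array. Without it CTGF rose by 1.10 ± 0.17 over 45 h (limma, adjusted p = 4.08e-05), compared with 0.41 ± 0.32 on all 16 arrays. ANKRD1 rose by 0.99 ± 0.31 (limma, adjusted p = 0.0139), compared with 0.40 ± 0.28. CYR61 changed by -0.34 ± 0.19, which did not pass (limma, adjusted p = 0.168), and its dependence on time was no longer past the threshold (limma, adjusted p = 0.125). The linear change of CTGF also moved to 0.15 without 3 h and to 0.86 with array weights, where it passed (limma, adjusted p = 0.0119), and that of ANKRD1 moved to 0.19 without 39 h. With each of the 4 sets of arrays given its own level, no member had a linear trend. The values were -2.07 ± 1.45 for CTGF, -4.32 ± 1.02 for CYR61 (limma, adjusted p = 0.0512) and -2.75 ± 1.01 for ANKRD1. That fit keeps only the slopes within sets, scaled to 45 h, so a call lost in it does not show that a trend was absent.

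**Figure D3:**
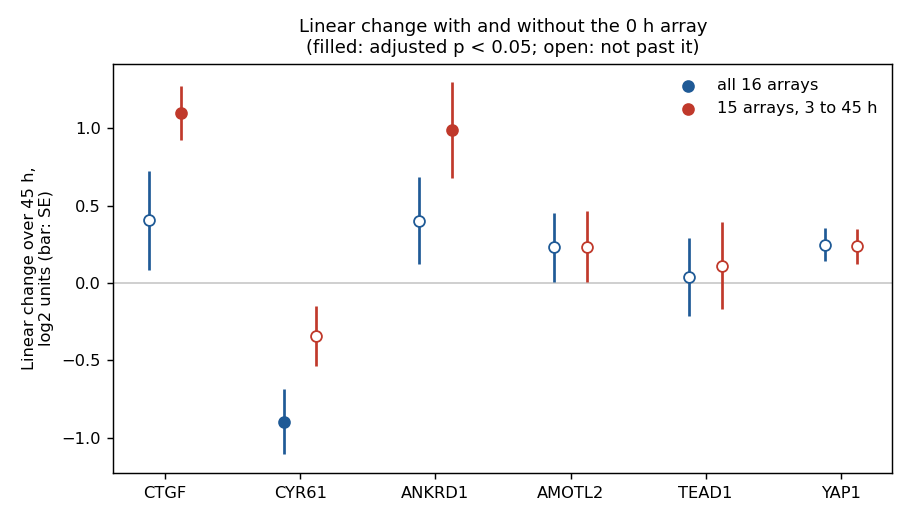
Linear change over 45 h in log2 units (vertical axis; bars are SE from limma) of the 6 members tested, with all 16 arrays in blue and with the 15 arrays from 3 to 45 h in red. Filled circles passed an adjusted p of 0.05. CTGF and ANKRD1 are open in blue and filled above 0 in red, and CYR61 is filled below 0 in blue and open in red.

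AMOTL2 encodes an angiomotin, a junction protein that binds YAP and holds it out of the nucleus, and is itself a YAP target. Its probe was detected on 10 of 16 arrays with signals from 216 to 337, and the normalized log2 signal ranged from 5.68 at 12 h to 6.67 at 3 h, with a median later value of 6.22. No array was past 1.7-fold of 0 h, and the linear change of 0.23 ± 0.22 did not pass (limma, adjusted p = 0.424). AXL encodes a receptor tyrosine kinase whose ligand is GAS6. Its 2 probes had signals from 169 to 211 and from 172 to 238, with lowest detection p-values of 0.103 and 0.0968, so AXL was not above background on any array. No level or change of AXL is given for that reason.

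TEAD1 encodes a DNA-binding factor through which YAP acts. It was detected on 9 of 16 arrays with signals from 210 to 301, and its log2 signal ranged from 5.67 at 42 h to 6.89 at 45 h. These extremes were 1 time step apart, and the linear change was 0.04 ± 0.25 (limma, adjusted p = 0.912). YAP1 itself was detected on all 16 arrays, with signals from 1816 to 6288. The normalized log2 signal was 11.63, 11.53, 11.26 and 11.83 from 0 to 9 h. It lay between 11.81 and 11.98 from 12 to 42 h before an array at 11.56 at 45 h. The lowest arrays of YAP1 were therefore those at 6, 3 and 45 h, and its whole range was 1.64-fold. YAP1 depended on time (limma, adjusted p = 0.0134) and departed from a straight line (adjusted p = 0.0478), while its linear change of 0.25 ± 0.11 did not pass (adjusted p = 0.065). That change was 0.13 without 6 h, 0.28 without 9 h and 0.39 without 45 h, and passed in the latter 2 cases (limma, adjusted p = 0.0387 and 0.0105) and with array weights (0.31, adjusted p = 0.00807).

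**Figure D4:**
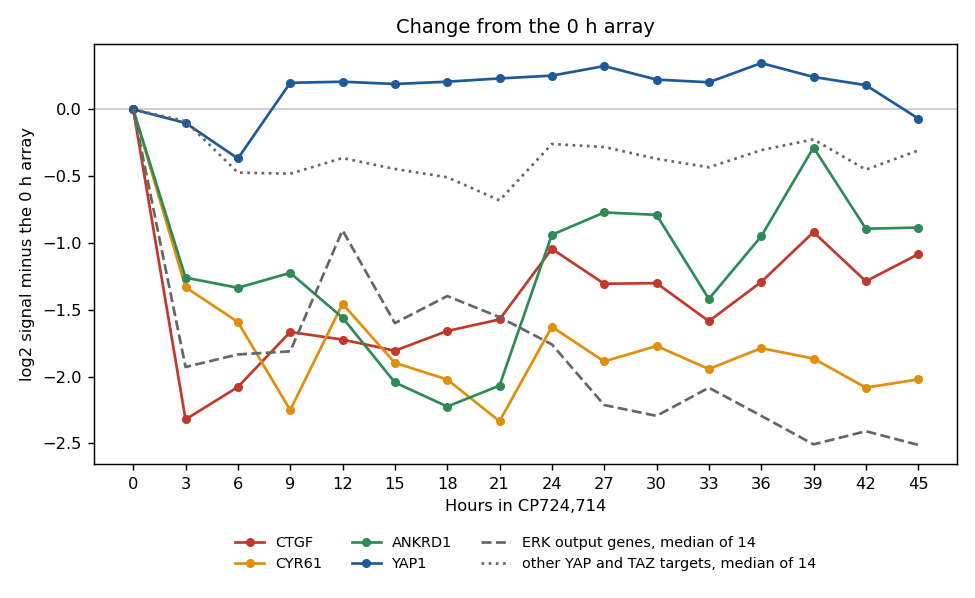
Log2 signal minus that of the 0 h array (vertical axis) against hours in CP724,714 (horizontal axis) for CTGF, CYR61, ANKRD1 and YAP1, with 1 array per point. The dashed line is the median of 14 ERK output genes and the dotted line the median of 14 other YAP and TAZ target genes. CTGF, CYR61 and ANKRD1 are below 0 at every later array, and YAP1 is above 0 from 9 to 42 h.

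Among the 15 pairs of the 6 members tested, CTGF and ANKRD1 were correlated over the 16 arrays (Pearson r = 0.72, permutation adjusted p = 0.0195, and Spearman rho = 0.73, permutation adjusted p = 0.0267). The value was r = 0.73 without the 0 and 3 h arrays, where CTGF was furthest from its median. Over the 15 arrays from 3 to 45 h it was r = 0.60 and did not pass (permutation adjusted p = 0.251). CTGF and CYR61 had r = 0.49 (permutation adjusted p = 0.38) and rho = -0.01, and r = -0.06 without the 0 and 3 h arrays. In the residuals around the cubic course the same pair had r = 0.62 (permutation adjusted p = 0.0966) and rho = 0.67 (permutation adjusted p = 0.0409), with r = 0.44 without those arrays. The residuals of CYR61 and AMOTL2, whose signals were near background, were negatively related. They had r = -0.605 (permutation adjusted p = 0.0966) and rho = -0.729 (permutation adjusted p = 0.0256). Over the 16 arrays the correlations of YAP1 with CTGF (r = 0.23), CYR61 (r = -0.35) and ANKRD1 (r = -0.05) did not pass, with permutation adjusted p between 0.382 and 0.86. From 3 to 45 h YAP1 and CTGF had r = 0.55, which did not pass either (permutation adjusted p = 0.251). Arrays are ordered in time, and neighbouring values are not independent.

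Over the 12344 probes detected on all 16 arrays, the probes with the courses most like CTGF were those of JUB (r = 0.82), ASB1 (r = 0.81) and FLJ39378 (r = 0.81). For CYR61 they were FJX1 (r = 0.91), TK2 (r = 0.90) and AGR2 (r = 0.90), and for ANKRD1 they were KCTD5 (r = 0.92), RRAS (r = 0.89) and GADD45A (r = 0.88). For YAP1 they were PGLS (r = 0.89), PRMT2 (r = 0.88) and PIK3CB (r = 0.87). The best matches of AMOTL2 were ARMC8 (r = 0.84), SAMM50 (r = 0.80) and PFTK1 (r = 0.79). Those of TEAD1 were NAIP (r = 0.82), PARD6A (r = 0.78) and CACNA2D2 (r = 0.78). These are the highest of many values over 16 arrays and are a description only.

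Of 17 other genes listed as YAP or TAZ targets, 14 were tested. In the first hours FJX1, the relative of a fly gene of planar polarity, fell by 1.60 ± 0.30 (limma, adjusted p = 0.00576), and F3, the tissue factor that starts coagulation, fell by 1.37 ± 0.27 (limma, adjusted p = 0.00783). These were 2 of the 14 genes, beside 1.19% of all probes. The median of the 14 genes in this contrast was -0.35, with 11 negative values, beside a median of 0.01 over all probes. Over 45 h 2 of the 14 rose and 4 fell, beside 26.0% and 21.7% of all probes, and the median linear change was -0.17, beside 0.05 over all probes. MYOF, which repairs membranes, rose by 0.49 ± 0.09 and ARHGEF17 rose by 0.35 ± 0.14 (limma, adjusted p = 0.00014 and 0.0424). The rise of ARHGEF17 passed in 7 of the 16 fits that left out 1 array and did not pass with cyclic loess (0.25, adjusted p = 0.167) or with no filter (adjusted p = 0.0731). The kinase gene NUAK2, detected on 13 of 16 arrays with signals from 204 to 372, fell by 1.39 ± 0.28 (limma, adjusted p = 0.00043). FJX1 fell by 1.20 ± 0.17 (limma, adjusted p = 9.4e-06). The fall of FJX1 was -0.67 without the 0 h array and still passed.

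Of 25 Hippo pathway genes, 20 were tested, 6 rose and 1 fell over 45 h, beside 26.0% and 21.7% of all probes, with a median of 0.16. The share that rose was near that of all probes. MOB1B, a coactivator of the LATS kinases, rose by 0.98 ± 0.26, and VGLL4, which competes with YAP for TEAD factors, rose by 0.84 ± 0.10 (limma, adjusted p = 0.00477 and 1.76e-06). TEAD4 fell by 0.97 ± 0.09 (limma, adjusted p = 4.73e-08), whereas TEAD2 changed by 0.02 ± 0.08 and TEAD3 by 0.19 ± 0.17, which did not pass. WWTR1, the gene of TAZ, changed by 0.20 ± 0.23 and did not pass. In the first hours AJUBA (JUB in the table), a LIM protein that restrains the LATS kinases, fell by 0.84 ± 0.20 (limma, adjusted p = 0.0334). WWC1, a scaffold upstream of these kinases, fell by 0.79 ± 0.20 (limma, adjusted p = 0.0384). These were 2 of the 20 genes tested, beside 1.19% of all probes. Over 45 h WWC1 was among the 6 genes that rose (0.50 ± 0.19, limma, adjusted p = 0.0337). LATS1 was detected on no array. With each set of consecutive arrays given its own level, none of these pathway genes or of the other targets had a linear trend. In that fit VGLL4 stood at 1.06 ± 0.47 and TEAD4 at -1.32 ± 0.54, so the lost calls do not show that the trends were absent.

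Among relatives of the members, CCN3 (NOV in the table) rose by 0.48 ± 0.18 over 45 h (limma, adjusted p = 0.0309). It did not pass without the 0 h array (0.25, adjusted p = 0.295), without the 39 h array (0.46, adjusted p = 0.0541), with cyclic loess (0.40, adjusted p = 0.0773) or with no filter (adjusted p = 0.0657). CCN6 changed by -0.14 ± 0.19 and did not pass, and CCN4 and CCN5 were not tested. TYRO3, a receptor related to AXL, fell by 1.18 ± 0.15, and the ligand GAS6 fell by 0.42 ± 0.14 (limma, adjusted p = 2.9e-06 and 0.0172). When the 3 h array was left out, GAS6 did not pass (-0.33, adjusted p = 0.0854). MERTK and ANKRD2 were not tested.

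SRF is another factor that responds to actin and serum, and CYR61 is known as one of its targets. Of 18 other genes of the SRF list tested, SRF itself fell by 0.70 ± 0.17 in the first hours, as 1.19% of all probes did. No other gene passed, with a median of -0.09 over the 18. Over 45 h 11 of the 18 fell and none rose, beside 21.7% and 26.0% of all probes. TAGLN stood at -2.64 ± 0.68 and MYL9, detected on 8 of 16 arrays with signals from 199 to 362, at -1.85 ± 0.27. Of 5 genes of the TGF-β response tested, PMEPA1 rose by 0.75 ± 0.15, SMAD3 rose by 0.37 ± 0.13 and TGFBI fell by 0.77 ± 0.15 over 45 h. Thus 2 of the 5 rose and 1 fell, beside 26.0% and 21.7% of all probes. The rise of SMAD3 did not pass without the 3 h or the 6 h array (adjusted p = 0.0508 and 0.059) or with cyclic loess (adjusted p = 0.076). PMEPA1 also fell by 0.51 ± 0.12 in the first hours (limma, adjusted p = 0.0258).

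Genes known as transcriptional output of ERK, a kinase downstream of HER2, were set beside the members. This list was chosen with earlier results of these data known, so its counts are a description only. In the first hours 11 of 14 fell, beside 1.19% of all probes, with a median of -1.86. Over 45 h 10 of the 14 fell, beside 21.7% of all probes. ETV5 stood at -3.56 ± 0.42 and ETV4, detected on 12 of 16 arrays with signals from 199 to 658, at -3.33 ± 0.24. The median of the 14 genes relative to 0 h was -1.93 at 3 h, -0.91 at 12 h and -2.51 at 45 h. On the same scale CTGF stood at -2.32, -1.72 and -1.08, CYR61 at -1.33, -1.46 and -2.02, and ANKRD1 at -1.26, -1.56 and -0.88. Among markers of cell type, the keratins KRT18 and KRT8 fell by 0.74 ± 0.10 and 0.68 ± 0.10 over 45 h. These were 2 of the 6 luminal markers tested, beside 21.7% of all probes that fell. The other 4 luminal markers did not pass. The endothelial gene VWF, detected on 13 of 16 arrays with signals from 173 to 468, rose by 2.51 ± 0.28. PECAM1 did not pass, CDH5 was detected on 1 array, and the leukocyte gene PTPRC was not detected. With each of the 4 sets of arrays given its own level, 20 of the 21 named genes with a linear trend, ETV5, ETV4, KRT18, KRT8 and VWF among them, did not pass, and TAGLN did (limma, adjusted p = 0.0326). That fit keeps only the slopes within sets, and ETV5 stood at -6.01 ± 1.82, ETV4 at -2.85 ± 1.09 and VWF at 3.02 ± 0.99. With SE of this size a lost call does not show that a trend was absent. The part of any of these groups of genes in the courses of the YAP target genes was not tested.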

How the data were processed

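SUM225 cells in 1 µM CP724,714 were sampled every 3 h from 0 to 45 h, with 1 culture and 1 bead array per time point, and arrays were grouped by the time in their labels. The deposited table holds linear signal intensity values per probe and array, to which the authors applied no background subtraction or normalization, with a deposited detection p-value for each. The scanner software was not given in the sources used here. All columns of per-sample values were used.

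Signals were background corrected, quantile normalized and converted to log2 by neqc of limma 3.58.1 (R 4.3.3) with an offset of 16, which reduces fold changes of dim probes. Deposited intensities were thus analysed on the log2 scale. The filter kept probes detected (p under 0.05) on 3 arrays or more. A cubic polynomial in hours was fitted by lmFit and eBayes, with F-tests of all 3 coefficients and of curvature and a test of the first-order coefficient. Windows of 3 to 9 h (3 arrays) and of 12 to 21, 24 to 33 and 36 to 45 h (4 arrays each) were compared on 15 arrays. Tests were two-sided with Benjamini-Hochberg adjustment over all probes tested at 0.05. The 0 h contrast and the straight line from 3 to 45 h were added after the data were seen. Members and gene lists were chosen with earlier results of these data known. Correlations were tested by permutation with 100000 resamples. The fit was tested on simulated data and recovered 96% of linear changes of 1.5 log2 units, with 4.95% of calls false. The simulated noise was independent between arrays, without sets, and 200 of 16110 probes were changed. In the data 47.7% of probes had a linear trend and neighbouring arrays may depend on each other. These rates therefore check the code and are not the error rates of the tests reported here.

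Named genes were all members, per list the 2 strongest rises and 2 strongest falls in the linear change past the threshold, all listed relatives, and the 3 probes most correlated with each member. Genes named for the first hours, and TEAD2, TEAD3, WWTR1 and LATS1, were chosen after their values were seen. Of several probes of a gene, the brightest was used. The number of arrays limits the precision. Alternatives were no background correction, an offset of 50, median scaling, cyclic loess, other filters, array weights, other courses and windows, the 4 sets of arrays as a factor, a 2-fold threshold, another reference and each array left out. Promoters were searched with Python 3.11.15 and figures drawn with matplotlib 3.10.9.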

Additional observations from a re-analysis of the deposited data

How the results depend on the processing

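Of 1249 values recomputed under other settings, 1171 stayed on the same side of the threshold in the same direction (counts within 1.5 times), 40 were weaker, 15 stronger, 11 moved and 12 reversed. The falls of CTGF, CYR61 and ANKRD1 from 0 h to 3 to 9 h passed without background correction, with an offset of 50, with median scaling, with cyclic loess and with either other filter. Without background correction the sizes of dim probes were smaller with every call kept, the linear change being 1.02 for VWF, -1.60 for ETV4, -2.12 for ETV5, -0.74 for MYL9, -0.53 for NUAK2, 0.41 for MOB1B and 0.27 for CCN3, and the steps of ANKRD1 -0.37 and 0.55. With no filter on detection, 5 member probes depended on time and 3 had a linear trend, both AXL probes among them although neither was above background. With array weights 3 members had a linear trend and the linear change of TEAD1 was -0.40. A straight line from 3 to 45 h gave 2. With each set of 4 arrays as a factor the counts of linear trends were 0 for members, 0 for other targets and 0 for Hippo genes, and the values were -2.07 for CTGF, -2.75 for ANKRD1, -0.43 for YAP1, -0.0946 for ARHGEF17, -0.65 for PMEPA1 and -0.64 for SMAD3. The cause of these values was not tested. That fit keeps only the slopes within sets, with a larger SE for each of these genes, such as 1.45 for CTGF and 0.48 for YAP1. Leaving out 1 array at a time gave counts of 3 to 4 members that depended on time, 1 to 2 with a linear trend (2 without 0 h), 1 (without 0 h) to 3 that departed from a straight line, 2 to 3 that differed between windows, 3 past 1.7-fold and 2 (without 6 h) to 3 lower in the first hours. For other targets with a linear trend the range was 4 to 8, and for Hippo genes 5 to 8. Signs reversed in the first hours for YAP1 (-0.23 to 0.049, positive without 6 h) and TEAD1 (-0.17 to 0.0802, positive without 9 h), and in the linear change of TEAD1 (-0.26 to 0.23, negative without 15, 39 or 45 h). No paired analysis was possible because no time point was sampled more than once. Signals near background limit what can be said of AMOTL2 and TEAD1, and AXL could not be measured.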
